A study of Mus musculus with 16 samples.

Results

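Folate carries single carbon units in 2 linked circuits, one in the cytosol and one in the mitochondria. The genes described here are 8 enzymes of these circuits and of the thymidylate steps that they feed, taken by symbol from the deposited gene counts. They are *Mthfd1* and *Shmt1* of the cytosol, *Mtr* of the methionine cycle, *Shmt2*, *Mthfd2* and *Mthfd1l* of the mitochondria, and *Tyms* and *Tk1* of thymidylate synthesis and salvage. All 8 were found among the 15386 genes of the RNA-seq table and among the 13490 genes of the m6A table, and all 8 passed the filter on low counts in both. The study asked what loss of *Mettl3*, the enzyme that writes the m6A mark on adenosines of mRNA, does to erythroid progenitors. CFU-E cells, the erythroid progenitors that precede proerythroblasts, were sorted from the bone marrow of adult mice as lineage-negative cells that carry both Kit and CD71. One group was control CFU-E (3 RNA-seq libraries), whose genotype the labels give only as control. The other was *Mettl3*-deficient CFU-E with very little surface Kit (3 RNA-seq libraries), from *Mettl3* fl/fl mice with 1 *EpoR-tdTomato-Cre* allele, a driver that recombines in erythroid cells and in the macrophages of erythroblastic islands. For m6A, RNA of control CFU-E cells was immunoprecipitated with an antibody to m6A (2 IP libraries) and compared with RNA that was not (2 input libraries). The 6 samples of proerythroblasts were not analysed here.

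In the cytosol, serine hydroxymethyltransferase (Shmt1) moves a carbon from serine to tetrahydrofolate, and the trifunctional Mthfd1 interconverts the methylene, methenyl and formyl forms of the loaded folate. The formyl form is used to build purine rings, and the methylene form is used by thymidylate synthase (Tyms) to turn dUMP into dTMP. Mtr, methionine synthase, passes the methyl form on to homocysteine with cobalamin as cofactor. In mitochondria, Shmt2, Mthfd2 and Mthfd1l run the same chemistry from serine towards formate, which leaves for the cytosol and is loaded onto folate again by Mthfd1. Thymidine kinase (Tk1) makes dTMP from thymidine instead and needs no folate. Erythroid progenitors divide quickly, and lack of folate or cobalamin is the textbook cause of megaloblastic anemia.

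The m6A mark is written mostly on the A of short words of which GGACT is the best known, often near the stop codon. This word was searched on the transcript strand of the longest coding transcript of each gene in the GENCODE annotation of GRCm38. It occurs at least once in 92.1% of the 11419 transcripts of tested genes of the m6A table, so its presence sets few genes apart. *Mtr* holds 15, *Mthfd1l* 6, *Shmt1* 5, *Mthfd1* 2, *Tk1* 2 and *Tyms* 1, and *Mthfd2* and *Shmt2* are among the 7.86% of transcripts with none. The occurrence nearest to the stop codon is shown for the 3 genes with the highest ratio of IP to input and for *Shmt1* and *Tk1*, which hold the word and had no such ratio. Each is given 5′ to 3′ with the word in capitals.
Mthfd1: cacaatgcctGGACTccctacgcgg
Mthfd1l: gaaacccacaGGACTgggcaagatg
Mtr: aggctgagaaGGACTcttctagtac
Shmt1: aggttattaaGGACTtgaaatttga
Tk1: tacccaggttGGACTctcagagagc

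In *Mthfd1* the window lies in the coding sequence at chr12:76317612-76317636 on the plus strand of GRCm38, with the A of the word 72 bases before the last coding base. In *Mthfd1l* it lies 19 bases past the last coding base, in the 3′ UTR, and spans an exon junction from chr10:4148105 to 4166483 on the plus strand. In *Mtr* it lies 583 bases before the last coding base and spans a junction from chr13:12190382 to 12193615 on the minus strand. In *Shmt1* it lies in the 3′ UTR at chr11:60788968-60788992 on the minus strand, 164 bases past the last coding base. In *Tk1* it lies in the 3′ UTR at chr11:117815902-117815926 on the minus strand, 37 bases past it. *Tyms* also holds the word and had no excess in IP, but is not shown. Its only occurrence lies in the 3′ UTR, 1405 bases past the last coding base. The wider family of words that the mark can take (A, G or T, then A or G, then AC, then A, C or T) occurred 20.1 times per kilobase in *Mthfd1*, against a median of 20.1 over all transcripts. Since one count covers a whole gene, no value here says which base carried the mark.

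Library totals ran from 17429262 to 21329242 counts in the RNA-seq and from 19421059 to 37142742 in the m6A libraries, IP replicate 1 being the deepest. Levels are given as CPM, counts scaled to a common library size with TMM factors, and between replicates edgeR put the biological coefficient of variation at 19.1% for RNA-seq and 21.9% for m6A. The Kit-lo libraries, as their label *Mettl3*-deficient CFU-E Kit-low is shortened here, did not show less *Mettl3* mRNA than their spread allows for. It was at 123 CPM in control and 117 CPM in the Kit-lo libraries, a log2 fold change of -0.07. Its p by the quasi-likelihood test of edgeR was 0.63 after Benjamini-Hochberg (BH) adjustment over all genes tested, the test used for every adjusted p here. The counts do not separate the floxed exon from the others, and *Tox4* on the other strand covers 18.4% of the exonic sequence of *Mettl3*, so the genotype rests on the labels. *Kit* was at 598 CPM in control and 55.2 CPM in the libraries labelled Kit-lo, and since the groups differ in both genotype and Kit gate, genotype and gate cannot be told apart in what follows. The labels do not say whether replicates came from separate animals, so p-values measure the spread between these libraries.

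Between the groups, the cytosolic genes fell and the mitochondrial genes did not move as one. Both cytosolic genes and *Mtr* fell in the Kit-lo libraries, *Mthfd2* of the mitochondria and *Tk1* rose, and *Shmt2*, *Mthfd1l* and *Tyms* changed by less than 1.5-fold. With a fold change of at least 1.5 and an adjusted p under 0.05 as the rule for a DEG, 3 of the 8 were lower DEGs and 2 were higher DEGs. Over the 11979 genes tested, 9.83% were lower and 12.1% were higher DEGs. The 8 genes and the gene lists below were chosen with earlier results of these data known. Shares set beside those of all genes are therefore no test of them. Without the fold threshold all 8 had an adjusted p under 0.05 in edgeR's quasi-likelihood test, 4 in each direction, as did 34.5% of all genes. For all 8 genes every library of one group lay beyond every library of the other, which was true of 47.5% of all genes. The median log2 fold change of the 8 was -0.02, beside 0.01 over all genes tested. In bulk libraries fewer cells of a type and less RNA per cell cannot be told apart.

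**Figure D1:**
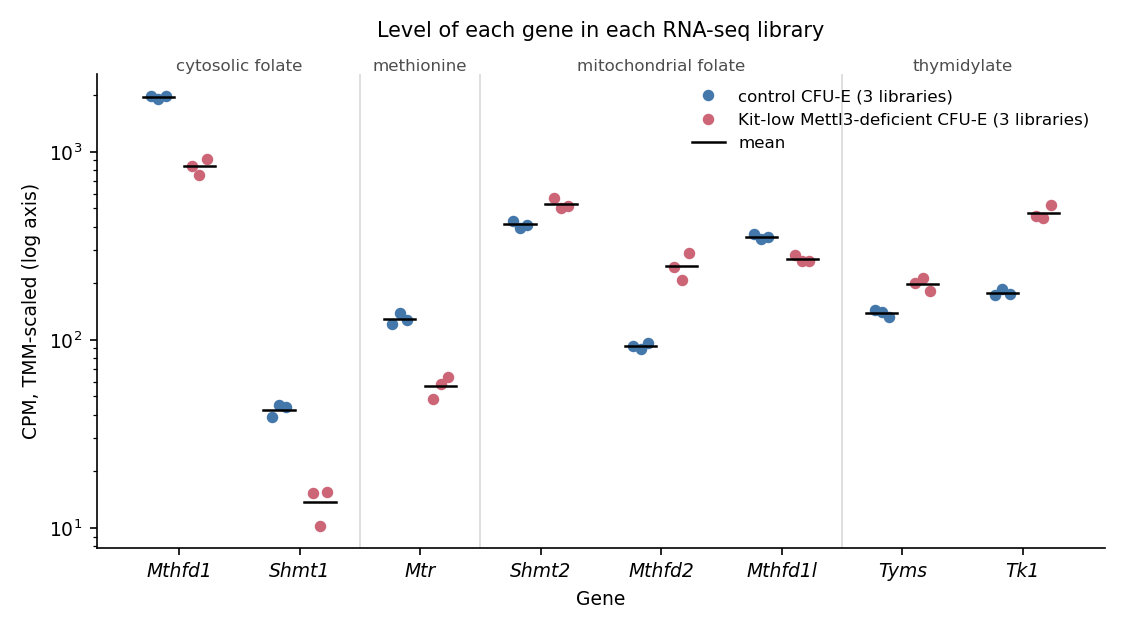
Level of the 8 genes in each RNA-seq library, as TMM-scaled CPM on a log axis, for 3 control (blue) and 3 Kit-low *Mettl3*-deficient (red) CFU-E libraries. Bars are means, and in no gene do the points of the 2 groups overlap.

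*Mthfd1* (ENSMUSG00000021048.7, chr12:76255298-76319803, plus strand) was at 1985, 1906 and 1982 CPM in control CFU-E and at 843, 754 and 916 CPM in the Kit-lo libraries. Averaged over the 6 libraries its level was above that of 99.6% of the genes tested. The means were 1957 ± 44.7 CPM and 838 ± 81.0 CPM (SD, n = 3 each), so 42.8% of the control level was left. The log2 fold change was -1.23 (SE 0.08, 95% interval -1.41 to -1.04, BH-adjusted p = 6.3e-06 by edgeR). It remained a DEG in each alternative analysis, with log2 fold changes from -1.28 to -1.13. Despite the fall, *Mthfd1* still had the highest level per kilobase of the 8 genes in both groups. This holds with length taken as all exons of a gene or as its longest transcript, the lengths that were used.

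*Shmt1* (ENSMUSG00000020534.14, chr11:60788104-60811718, minus strand), the cytosolic entry point for carbon from serine, was at 39.0, 44.8 and 43.7 CPM in control and at 15.4, 10.2 and 15.5 CPM in the Kit-lo libraries. The highest Kit-lo library was thus below the lowest control library. On the log2 scale the change was -1.63 (SE 0.18, BH-adjusted p = 9.2e-05 by edgeR). Of its exonic bases 4.7% overlap *Smcr8* on the opposite strand, and the sources do not say whether the counting used strand. *Smcr8* itself was at 26.5 CPM in control and 23.9 CPM in the Kit-lo libraries.

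*Mtr* (ENSMUSG00000021311.9, chr13:12182712-12258113, minus strand), which regenerates tetrahydrofolate while it makes methionine, was at 122, 139 and 127 CPM in control. It was at 48.6, 58.3 and 63.1 CPM in the Kit-lo libraries, all below every control library. The log2 fold change was -1.19 (SE 0.12, BH-adjusted p = 4.9e-05 by edgeR), beside -1.23 for *Mthfd1*.

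*Mthfd2* (ENSMUSG00000005667.8, chr6:83305691-83325908, minus strand), the mitochondrial dehydrogenase and cyclohydrolase, was at 92.4, 89.4 and 96.4 CPM in control and at 244, 208 and 289 CPM in the Kit-lo libraries. All 3 Kit-lo libraries were above all 3 controls, and they were more widely spread. The means were 92.7 ± 3.46 CPM and 247 ± 40.6 CPM (SD, n = 3 each). On the log2 scale the change was 1.41 (SE 0.12, 95% interval 1.15 to 1.68, BH-adjusted p = 1.8e-05 by edgeR), a 2.66-fold rise.

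The other mitochondrial genes changed little, and in opposite directions. *Shmt2* (ENSMUSG00000025403.5, chr10:127517123-127522444, minus strand), the mitochondrial partner of *Shmt1*, was at 431, 394 and 409 CPM in control and at 565, 499.9 and 512 CPM in the Kit-lo libraries. Its log2 fold change was 0.35 (95% interval 0.18 to 0.53, adjusted p = 0.0059 from the same edgeR test), below the fold threshold. *Mthfd1l* (ENSMUSG00000040675.17, chr10:3973118-4167081, plus strand), which releases formate, was at 365, 344 and 352 CPM in control and at 283, 263 and 263 CPM in the Kit-lo libraries. Its log2 fold change was -0.39 (95% interval -0.56 to -0.23, adjusted p = 0.0022 from edgeR's test). Both groups of libraries were separate for each gene, and neither gene was a DEG.

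*Tk1* (ENSMUSG00000025574.13, chr11:117815526-117826092, minus strand) was at 173, 186 and 176 CPM in control and at 453, 447 and 521 CPM in the Kit-lo libraries. Every Kit-lo library was thus far above every control library. The log2 fold change was 1.41 (SE 0.08, 95% interval 1.22 to 1.60, BH-adjusted p = 3.2e-06 by edgeR). *Tyms* (ENSMUSG00000025747.12, chr5:30058202-30073617, minus strand), the enzyme of the folate-dependent route to the same product, was at 144, 141 and 133 CPM in control and at 199.9, 214 and 181 CPM in the Kit-lo libraries. Its log2 fold change was 0.51 (95% interval 0.31 to 0.71, adjusted p = 0.0016 from edgeR's test), below the threshold of 1.5-fold (0.585 on the log2 scale), and among the alternatives it passed the DEG rule, at 0.585, when Kit-lo replicate 3 was left out. The genome also holds a processed pseudogene of *Tyms*, with which reads could be shared. Of the exonic bases of *Tk1* 1.6% overlap *Afmid*, which was at 5.27 CPM in control and 18.7 CPM in the Kit-lo libraries.

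**Figure D2:**
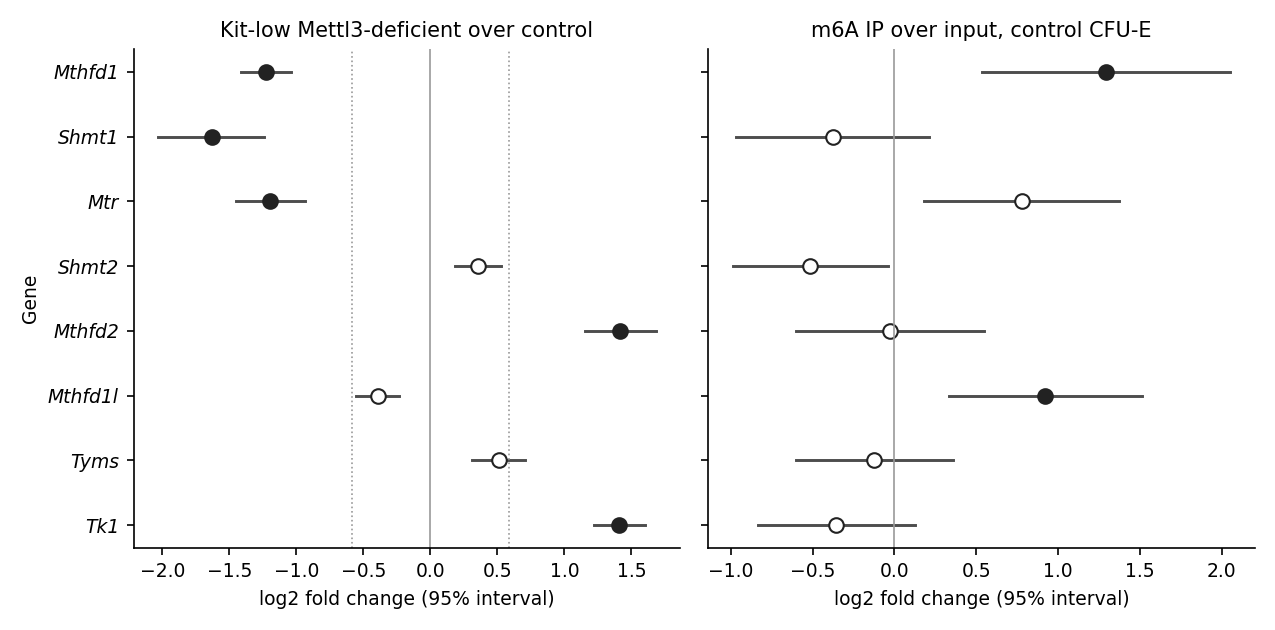
Log2 fold change of each gene with its 95% interval, for Kit-low *Mettl3*-deficient over control CFU-E (left) and for m6A IP over input in control CFU-E (right). Filled points passed the rule of their comparison, dotted lines mark the 1.5-fold threshold of the RNA-seq rule, and *Mthfd1* is the gene that is filled on both sides.

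Set side by side within each library, the enzyme pairs of the 2 compartments shifted towards the mitochondrial gene. These ratios compare levels per kilobase of exon, do not depend on the scaling between libraries, and are given as a description without a test. They restate the fold changes given above. Those of *Mthfd2* and *Mthfd1l* share *Mthfd1* as denominator, so its fall raises both and they are not independent. The ratio of *Shmt2* to *Shmt1* was 13.8, 11.0 and 11.7 per control library and 45.9, 60.9 and 41.3 per Kit-lo library. The mitochondrial gene was thus already the higher one in control cells, and its excess was 4.06 times as large in the Kit-lo libraries. The ratio of *Mthfd2* to *Mthfd1* was 0.0603 ± 0.0014 in control and 0.374 ± 0.026 in the Kit-lo libraries (SD, n = 3 each), 6.20 times as large. The ratio of *Mthfd1l* to *Mthfd1* was 0.181 ± 0.0031 in control and 0.324 ± 0.032 in the Kit-lo libraries (SD, n = 3 each), 1.79 times as large although *Mthfd1l* itself was lower there. In both of these pairs the cytosolic gene stayed the higher one.

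**Figure D3:**
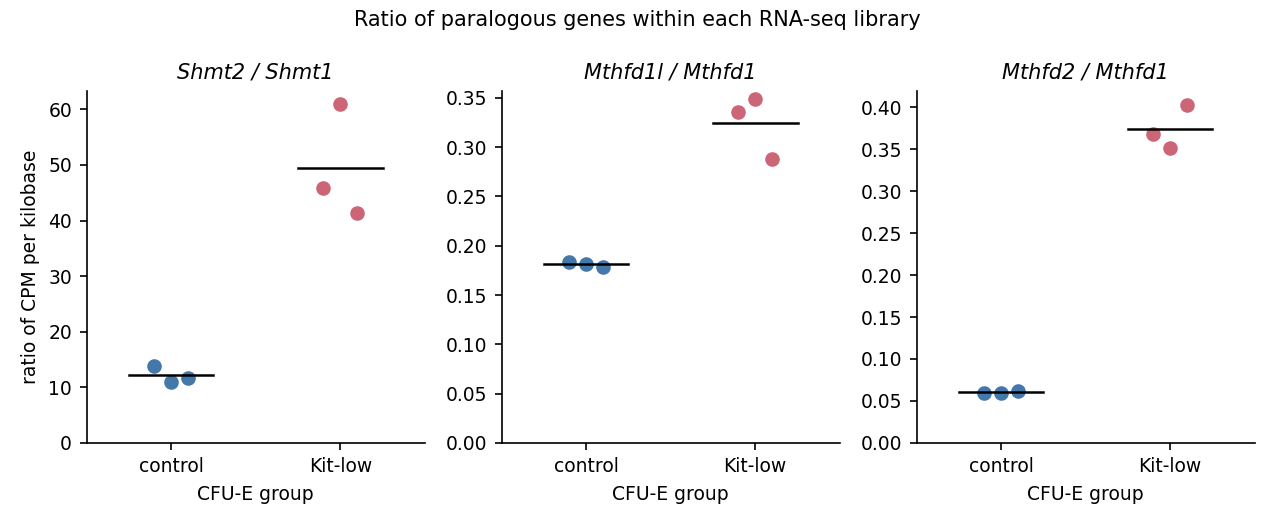
Ratio of the level per kilobase of exon of a mitochondrial to that of a cytosolic folate gene in each RNA-seq library, for 3 control and 3 Kit-low *Mettl3*-deficient CFU-E libraries. Bars are means, each axis starts at 0, and all 3 ratios are higher in every Kit-low library than in every control library.

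Ordered by level per kilobase in control CFU-E, *Mthfd1* came first at 441 ± 10.1 CPM per kilobase (SD, n = 3), followed by *Shmt2* at 132 ± 6.01 and *Mthfd1l* at 79.8 ± 2.32. *Tk1* at 34.3 ± 1.29, *Mthfd2* at 26.6 ± 0.99, *Tyms* at 22.9 ± 0.93, *Mtr* at 15.2 ± 1.03 and *Shmt1* at 10.9 ± 0.80 CPM per kilobase came next. No neighbours in this order overlapped between their lowest and highest control libraries. In the Kit-lo libraries *Mthfd1* at 189 ± 18.2 and *Shmt2* at 169 ± 11.2 CPM per kilobase had ranges over the 3 libraries that overlapped (169.8 to 206 and 161 to 182), with *Mthfd1* the higher in each library. There *Tk1* (91.1 ± 7.90) and *Mthfd2* (70.9 ± 11.7) stood above *Mthfd1l* (60.7 ± 2.57), and the ranges of *Mthfd2* and *Mthfd1l* overlapped. The span from the first to the last gene was 40.5-fold in control and 53.5-fold in the Kit-lo libraries. Length here covers all exons of a gene, which for *Tk1* is 5198 bases beside 1440 in its longest coding transcript. A shorter length would raise the level of *Tk1*, and the order with coding transcripts was not computed.

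Of the 41 other genes of folate, serine, methionine and thymidylate metabolism that were listed, 38 were in the RNA-seq table and 31 were tested. Of these 31, 1 was a higher and 6 were lower DEGs, or 3.23% and 19.4% beside 12.1% and 9.83% over all genes, and their median log2 fold change was -0.05. The gene that rose was *Folr1*, a folate receptor. It was low throughout, at 1.58, 0.572 and 0.973 CPM in control and at 11.0, 7.62 and 11.2 CPM in the Kit-lo libraries, with a log2 fold change of 3.23 (adjusted p = 0.00016 in edgeR's test). The main carrier of reduced folates, *Slc19a1*, was at 309.8 CPM in control and 365 CPM in the Kit-lo libraries and did not pass the test (log2 fold change 0.23, adjusted p = 0.11 in edgeR's test).

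The 6 that fell came from several steps. *Phgdh*, the first enzyme of serine synthesis, was at 648, 673 and 714 CPM in control and at 458, 322 and 329 CPM in the Kit-lo libraries (log2 fold change -0.87, adjusted p = 0.00058 in edgeR's test). The other enzymes of that route, *Psat1* and *Psph*, had log2 fold changes of 0.29 and 0.14 and were no DEGs. *Gcsh*, a carrier protein of the mitochondrial glycine cleavage system, had a log2 fold change of -0.69 (adjusted p = 0.0050), and *Ggh*, which trims the glutamate tail of folates, one of -1.13 (adjusted p = 0.037, both in edgeR's test). The call of *Ggh* was lost with scaling by library size alone (adjusted p = 0.052) and without control replicate 1, 2 or 3 or Kit-lo replicate 2 (adjusted p = 0.086, 0.080, 0.12 and 0.087 in edgeR's test). *Gcsh* was below the fold threshold without Kit-lo replicate 2, at a log2 fold change of -0.52. *Tk2*, the mitochondrial thymidine kinase, went from 40.6, 39.8 and 38.2 CPM to 16.2, 12.2 and 11.9 CPM (log2 fold change -1.56, adjusted p = 5.8e-05 in edgeR's test), opposite to *Tk1*. *Dctd*, which makes dUMP for Tyms, had a log2 fold change of -0.72 and *Tymp*, which breaks thymidine down, one of -2.18 at a level of only 3.33 CPM in control.

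**Figure D4:**
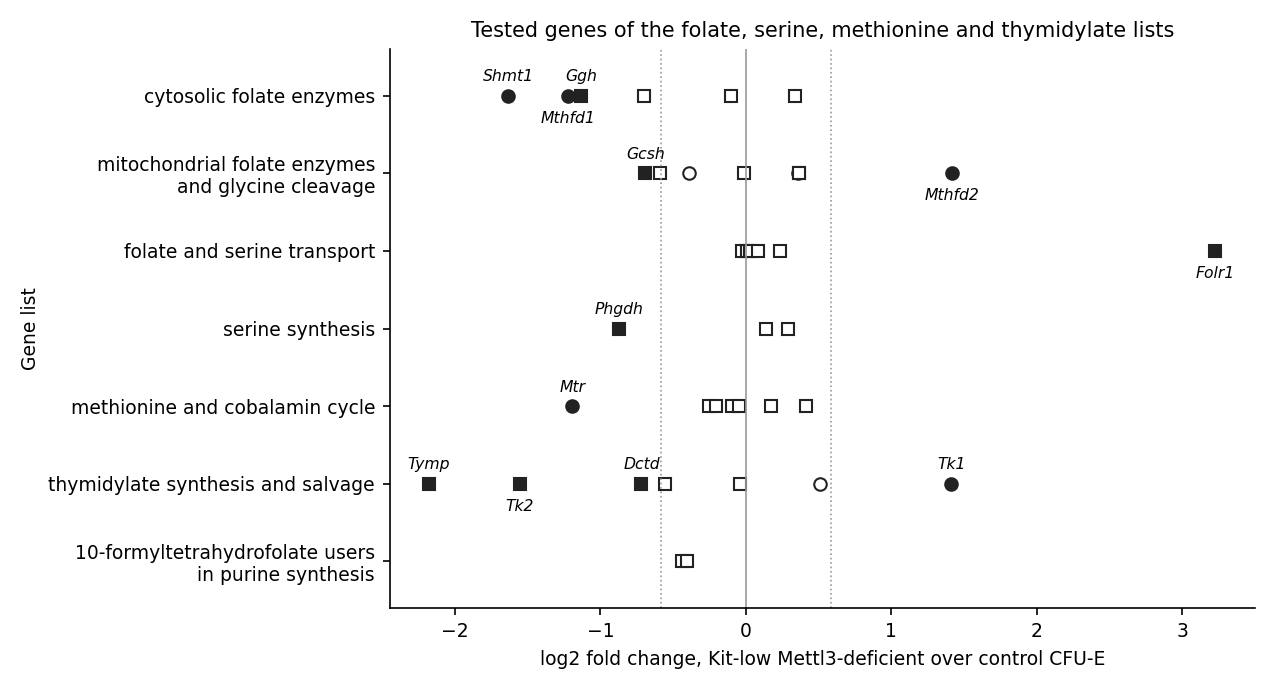
Log2 fold change of Kit-low *Mettl3*-deficient over control CFU-E for the tested genes reported from 7 metabolic lists. Circles are the 8 genes described here and squares the other genes, filled symbols are DEGs and are named, and dotted lines mark a fold change of 1.5. The 3 filled points on the right are *Mthfd2*, *Folr1* and *Tk1*.

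By list and with the 8 genes included, cytosolic folate enzymes had 3 lower DEGs (*Mthfd1*, *Shmt1* and *Ggh*) of 6 tested, 2 where the call of *Ggh* was lost, and a median log2 fold change of -0.92. Mitochondrial folate and glycine cleavage enzymes had 1 lower and 1 higher of 8 and a median of 0.17. The methionine and cobalamin list had *Mtr* as its only DEG among 7 tested. Thymidylate synthesis and salvage had 3 lower and 1 higher of 7 and a median of -0.56. The purine enzymes that use the formyl folate, *Gart* and *Atic*, had log2 fold changes of -0.41 and -0.44 and were no DEGs.

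Of 20 S-phase genes 5 were higher DEGs and 15 were no DEGs, beside 12.1% higher over all genes by edgeR's test, and their median log2 fold change was 0.25. The 5 were *Rrm2*, *Cdc6*, *Gins1*, *Ccne1* and *Ccne2*. *Rrm2*, the small subunit of ribonucleotide reductase, was at 100.2, 77.2 and 87.5 CPM in control and at 233, 249 and 196 CPM in the Kit-lo libraries, a log2 fold change of 1.36 (adjusted p = 3.1e-05 in edgeR's test) beside 1.41 for *Tk1*. Of 14 genes of the ATF4 stress response, a program that is known to raise *Mthfd2*, 9 were tested, of which 4 were no DEGs and 5 were higher DEGs (*Trib3*, *Sesn2*, *Slc7a5*, *Slc3a2* and *Nupr1*). *Trib3* and *Nupr1* were near the floor in control, at 0.264 and 0.64 CPM, beside 8.81 and 4.6 CPM in the Kit-lo libraries. *Asns*, another target of ATF4, had a log2 fold change of -0.28 (adjusted p = 0.026 in edgeR's test) and was no DEG. Late erythroid genes rose far more, with 9 of 11 tested genes as higher DEGs, beside 12.1% of all genes, and a median log2 fold change of 4.99. Their summed levels were 785 to 889 CPM in control and 4016 to 6045 CPM in the Kit-lo libraries. Of 4 tested genes of early progenitors 3 were lower DEGs, beside 9.83% of all genes. These were *Gata2*, *Myb* and *Kit*, of which *Kit* encodes the protein used for the gate, so its fall is not independent of the sort. Erythroid identity genes were present in all libraries, with 4 of 9 higher DEGs. In the input libraries these 9 identity genes summed to 5819 to 6968 CPM. The part of cell stage and of these programs in the changes of the 8 genes was not tested.

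Markers of other blood cells were at low levels. The 9 macrophage markers in the table summed to 22.6 to 27.5 CPM in control and 12.6 to 16.0 CPM in the Kit-lo libraries, and the 9 granulocyte markers to 25.8 to 39.2 CPM and 16.1 to 24.8 CPM. The 5 megakaryocyte markers summed to 21.1 to 27.2 CPM and 21.2 to 29.2 CPM, the 4 mast cell and basophil markers to 1.37 to 5.10 CPM and 0 to 2.92 CPM, and the 6 lymphocyte markers to 3.49 to 4.18 CPM and 5.14 to 6.52 CPM. No marker in the table was at 0 in all 6 libraries. The part of such cells in the changes of the 8 genes was not tested.

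The genes closest to *Mthfd1* and *Mthfd2* in profile were sought among 6930 genes by Pearson's r of log2 CPM over the 6 libraries, a description in which the step between the groups sets most of the value. For *Mthfd1* they were *Hif3a* (r = 0.9992, log2 fold change -2.62), *Nop53* (r = 0.9990, log2 fold change -0.58) and *Nelfa* (r = 0.9985, log2 fold change -0.49). For *Mthfd2* they were *Slc25a44* (r = 0.9985, log2 fold change 1.04), *Pias4* (r = 0.9981, log2 fold change 0.96) and *Degs1* (r = 0.9981, log2 fold change 1.23).

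In the m6A libraries, which the IP over input comparison of control CFU-E cells used to ask which mRNAs carry the mark, *Mthfd1* and *Mthfd1l* were higher in IP, *Mtr* was higher without passing the adjusted threshold, and the other 5 genes had no excess in IP. Higher or lower in IP here means a log2 fold change above or below 0 with an adjusted p under 0.05. By this rule 2 of the 8 were higher, beside 7.9% of the 11447 genes tested. Lower in IP were 0 of the 8 by edgeR's quasi-likelihood test and 0 by DESeq2, beside 7.86% of all genes by edgeR's. For 5 of the 8 both IP libraries lay beyond both input libraries, which was true of 60.9% of all genes. The median log2 fold change of the 8 was -0.08, beside 0.06 over all genes tested. The split over all genes moved with the scaling, from 904 higher and 900 lower with TMM to 1451 and 754 with upper-quartile scaling and 934 and 608 with library size alone.

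**Figure D5:**
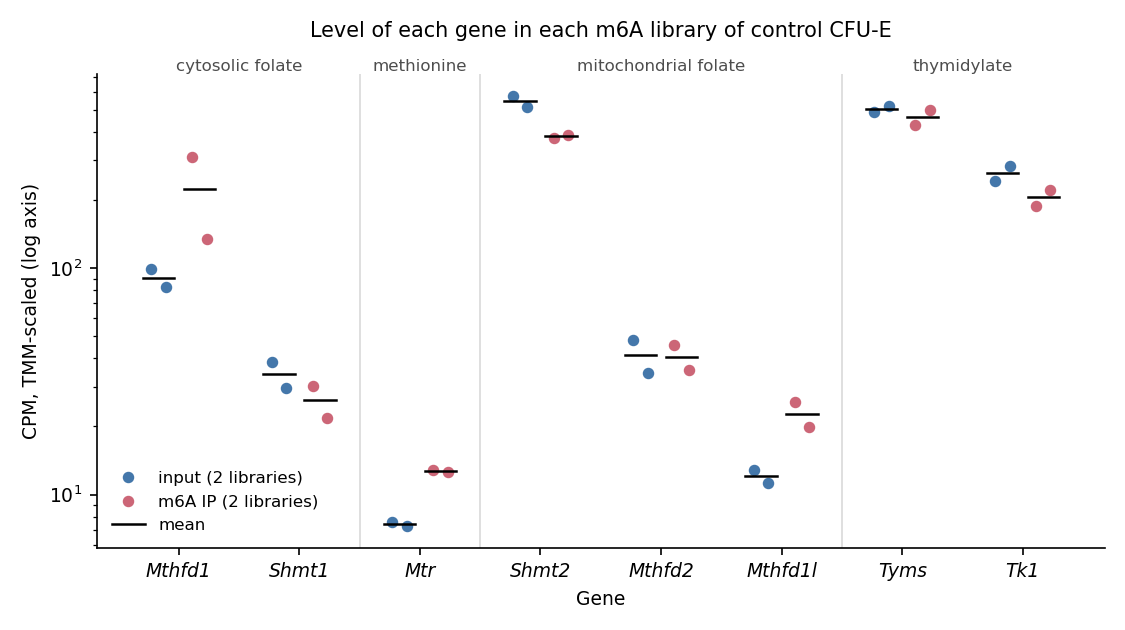
Level of the 8 genes in each m6A library of control CFU-E, as TMM-scaled CPM on a log axis, for 2 input (blue) and 2 IP (red) libraries. Bars are means. For *Mthfd1*, *Mtr* and *Mthfd1l* both IP points lie above both input points, and for *Shmt2* and *Tk1* both lie below.

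*Mthfd1* was at 99.1 and 82.7 CPM in the input libraries and at 311 and 135 CPM in the IP libraries, from 12983 and 2678 counts in IP. Both IP libraries were above both inputs, but they differed from each other by more than the second one differed from the inputs. On the log2 scale the change was 1.30 (SE 0.34, 95% interval 0.54 to 2.05, BH-adjusted p = 0.030 by edgeR). IP replicate 1, the deepest library, carried much of this value. Without it the log2 fold change was 0.55 (adjusted p = 0.23), and without input replicate 1 or 2 it was 1.41 (adjusted p = 0.10) or 1.16 (adjusted p = 0.058), all in edgeR's test. Without IP replicate 2 it was 1.77 (adjusted p = 0.00053). DESeq2 on all 4 libraries gave 1.24 (adjusted p = 0.0028).

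*Mthfd1l* was at 12.8 and 11.3 CPM in input and at 25.6 and 19.9 CPM in IP, again with both IP libraries above both inputs and with less spread. The log2 fold change was 0.92 (SE 0.26, 95% interval 0.34 to 1.51, BH-adjusted p = 0.041 by edgeR). Without IP replicate 1 or input replicate 1 or 2 the adjusted p was 0.17, 0.18 or 0.21 in edgeR's test. With scaling by library size alone the log2 fold change was 1.09 and the adjusted p 0.050, just at the threshold. *Mtr* was at 7.58 and 7.25 CPM in input and at 12.9 and 12.6 CPM in IP, with the replicates close together. Its log2 fold change was 0.78 (95% interval 0.18 to 1.37) and its adjusted p 0.075 in edgeR's test, so it is not counted as higher in IP.

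The remaining genes did not pass the test in either direction. *Shmt1* was at 38.4 and 29.5 CPM in input and at 30.2 and 21.9 CPM in IP (log2 fold change -0.38, adjusted p = 0.36 in edgeR's test), although it holds more GGACT words than *Mthfd1*. *Mthfd2* was at 48.1 and 34.6 CPM in input and at 45.7 and 35.4 CPM in IP, with a log2 fold change of -0.03 (95% interval -0.60 to 0.55) that went to 0.10 with upper-quartile scaling and to 0.13 with scaling by library size alone. *Shmt2* was at 577 and 513 CPM in input and at 376 and 387 CPM in IP, with a log2 fold change of -0.51 (95% interval -0.99 to -0.04, adjusted p = 0.13 in edgeR's test). *Tk1* was at 242 and 284 CPM in input and at 189 and 222 CPM in IP (log2 fold change -0.36, adjusted p = 0.29 in edgeR's test). *Tyms* was at 491 and 519.5 CPM in input and at 429 and 498 CPM in IP (log2 fold change -0.12, 95% interval -0.60 to 0.36, and 0.01 and 0.03 with the same other scalings). A value near 0 does not show that the mark is absent, since IP over input is relative to the other mRNAs in the library.

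The ratio of IP to input went up with transcript length over all genes. Transcripts were put in 4 classes of nearly equal number by length, of which class 1 is the shortest. In class 1 the median log2 fold change was -0.25 and 2.03% of genes were higher in IP, and in class 4 the median was 0.36 and 12.4% were higher. *Mthfd1* (3241 bases) and *Mthfd1l* (3687 bases) lie in class 3, whose median was 0.27 and where 10.6% were higher in IP, and *Mtr* (8294 bases) lies in class 4. *Shmt1*, *Mthfd2* and *Shmt2* lie in class 2 (median -0.01), *Tk1* in class 1 and *Tyms* in class 3. The part of length in the values of the 8 genes was not tested. Of the transcripts with at least 1 GGACT 8.11% were higher in IP, and of those with none 5.35%.

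Of the 32 other genes of the metabolic lists tested in the m6A table, 3 were higher and 3 were lower in IP, or 9.38% each, near the 7.9% and 7.86% over all genes. *Dld*, a subunit of the glycine cleavage system, was at 70.3 and 36.6 CPM in input and at 136 and 95.6 CPM in IP (log2 fold change 1.11). *Slc25a32*, the folate carrier of mitochondria, had a log2 fold change of 1.44, and *Gldc*, the glycine decarboxylase, one of 2.23 at only 0.323 CPM in input. *Dut*, which makes dUMP from dUTP, was at 997 and 1005 CPM in input and at 411 and 504 CPM in IP (log2 fold change -1.13). *Atic* had a log2 fold change of -1.06 and *Mthfd2l*, a mitochondrial relative of *Mthfd2*, one of -1.64. Of these 6 calls only that of *Mthfd2l* held with each library left out in turn. Without input replicate 1 those of *Gldc*, *Slc25a32* and *Dut* were lost, without input replicate 2 those of *Gldc*, *Dld*, *Slc25a32* and *Atic*, without IP replicate 1 those of *Dld* and *Slc25a32*, and without IP replicate 2 that of *Gldc*. Together with *Mthfd1l*, 3 of the 9 tested mitochondrial folate and glycine cleavage genes were thus higher in IP and 1 was lower, and of the 6 cytosolic folate genes *Mthfd1* was the one that was higher.

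Set beside each other, *Mthfd1* was higher in IP and lower in the Kit-lo libraries, while *Shmt1*, with a log2 fold change of -1.63 between the groups, had no excess in IP, and *Mthfd1l*, with an excess in IP, was no DEG. Over the 10773 genes tested in both tables, 864 were higher in IP, of which 88 (10.2%) were lower and 89 (10.3%) were higher DEGs in the Kit-lo libraries. Over all 11979 genes of the RNA-seq comparison 9.83% were lower and 12.1% were higher DEGs, so these shares are near those of all genes.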

How the data were processed

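Of the 16 samples, 10 had values and were analysed, namely RNA-seq of 3 control CFU-E and 3 *Mettl3*-deficient Kit-lo samples and, from control CFU-E, 2 IP and 2 input samples for m6A. Libraries were made by Smart-seq2 (RNA-seq) and SLIM-seq (m6A), both primed with oligo-dT. The authors filtered reads with fastp 0.23.4, quantified transcripts with kallisto 0.48.0, summed transcripts per gene with tximport, and the deposited values are estimated counts per gene, all whole numbers and not normalized. Their paper names mm10 as the reference, and the submitters' processing notes list both mm10 and GRCm39. Strand, and the use of the molecular identifiers of SLIM-seq in counting, are not given in the sources used here. The 8 genes and the lists were chosen with earlier results of these data known. From the lists 1 gene is not reported here and is left out of the list counts.

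Each experiment was fitted with its own libraries and no block in R 4.3.3 with edgeR 4.0.16 (TMM, filterByExpr, glmQLFit, glmQLFTest, Benjamini-Hochberg over all genes tested). A standard error (SE) is the size of the log2 fold change over the root of F. The study used DESeq2 with a filter on TPM, which was not applied. Alternatives were DESeq2 1.42.0, 3 other scalings, no count filter, a replicate block, each library left out, no fold threshold, and another gene length. Named genes are the 8, *Mettl3* and *Kit*, the called genes of the metabolic lists, the 3 nearest profiles of *Mthfd1* and *Mthfd2*, and genes whose exons overlap theirs. *Slc19a1*, *Psat1*, *Psph*, *Gart*, *Asns* and the named S-phase and ATF4 genes were added after their values were seen. Lengths, words and coordinates come from GENCODE on GRCm38, which held 99.9% of either table's genes. The fits were first tested on simulated counts. Replicate error sets the precision, and molecules copied by PCR are not independent. Plots were made in matplotlib 3.10.9 under Python 3.11.15.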

Additional observations from a re-analysis of the deposited data

How the results depend on the processing

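In the RNA-seq comparison all 8 genes kept their direction and their side of the DEG rule under DESeq2, the other scalings, no count filter and the replicate block, and with each library left out, except *Tyms*. Its log2 fold change ran from 0.472 to 0.585 with 1 library left out and was that of a DEG without Kit-lo replicate 3. *Mettl3* ran from -0.118 to 0.00274, the latter without the same library. With no fold threshold, 2104 genes were higher and 2024 lower over all genes, and 4 were higher and 4 lower among the 8. With the longest transcript as the gene length the order of the levels was the same. The ratios of *Mthfd1l* and *Mthfd2* to *Mthfd1* in control went to 0.159 and 0.0736 (the change between groups does not depend on length). The longest coding transcripts of *Tk1* (1440 bases) and *Tyms* (3163 bases) are shorter than their longest transcripts (2490 and 3884 bases). With coding transcripts as the length the order was not computed, and it can differ.

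In the m6A comparison the log2 fold changes of *Mthfd1* (0.548 to 1.77) and *Mthfd1l* (0.709 to 1.08) stayed above 0 with 1 library left out. The number of the 8 that was higher in IP ran from 0 to 2 there, and was 0 without IP replicate 1, input replicate 1 or input replicate 2. Each such fit leaves 1 library on one side, which is assumed to vary like the others. *Mthfd2* ran from -0.251 to 0.205, with its sign changed without input replicate 1 or IP replicate 2. Over all genes those higher in IP ran from 164 to 1358 and those lower from 427 to 968. The median of all genes, 0.06 with TMM, went to 0.18 with upper-quartile scaling and to 0.21 with library size alone. Upper-quartile scaling gave 0.908 for *Mtr*, then past the threshold, 0.0982 for *Mthfd2*, 0.00809 for *Tyms* and 1451 genes higher in IP, beside 754 lower. Library size alone gave 1.09 for *Mthfd1l*, no longer past it, 0.133 for *Mthfd2*, 0.0278 for *Tyms* and 1 of the 8 higher in IP, with 934 higher and 608 lower over all genes. Under both scalings *Mthfd2* and *Tyms* were below the median of all genes. The cause of their change of sign was not tested.

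Replicate numbers did not establish pairs in the RNA-seq, and for m6A pairing could not be judged. Correlations of the deviations of same-numbered libraries were 0.0344, -0.017 and -0.0719 for RNA-seq. For m6A the value was 0.205, but with only 2 numbers the deviations of a kind mirror each other, so it cannot decide. The replicate block changed no call of the 8 genes in the RNA-seq. In the m6A table the replicate block gave 0.779 for *Mtr* and -0.512 for *Shmt2*, both then past the threshold, with 3 of the 8 higher and 1 lower in IP, and 1783 higher and 1755 lower genes in all.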

Other observations

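Of 20 S-phase genes tested in the m6A table, 4 were higher in IP (*Mcm4*, *Mcm6*, *Rrm1* and *Ccne2*), 1 was lower (*Ccne1*) and 15 were neither, beside 7.9% higher and 7.86% lower over all genes. *Mcm6*, a subunit of the replicative helicase, was at 99.4 and 67.3 CPM in input and at 285 and 112 CPM in IP, and as for *Mthfd1* the higher IP value was that of IP replicate 1.

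The standing of *Mthfd1* among all genes differed between the 2 kinds of library. Over the 6 RNA-seq libraries its mean level was above that of 99.6% of the genes tested, and over the 4 m6A libraries above 87.4%. *Tyms* stood above 88.8% in the former and 96.4% in the latter. The 2 tables were scaled separately and their libraries made by different protocols, so these places are given without a test.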
